A study of Mus musculus with 16 samples.

Results

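The spleen on day 2 of daily imiquimod treatment was compared with the untreated spleen, over mice with and without PKR, the kinase encoded by Eif2ak2. Members were chosen by their labels: the 4 libraries labelled day 2 and the 4 labelled day 0, 8 of the 16 libraries of the series. All mice were male C57BL/6, wild type or PKR knockout. Day 2 mice had received a daily dose of 62.5 mg of 5% imiquimod cream on the shaved skin of the back, and day 0 mice had received no cream. Each of the 4 groups (wild type day 0, knockout day 0, wild type day 2, knockout day 2) held 2 libraries, and each library pooled the cells of 2 spleens after a 70-µm mesh and lysis of red cells. Total RNA depleted of ribosomal RNA was sequenced. No group received cream without imiquimod, so imiquimod, the cream, the shaving and the handling cannot be told apart. The deleted part of Eif2ak2 is not described in the labels. Libraries of days 1 and 5, with the same 2 genotypes, are used below only to place the day 2 levels in time.

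Imiquimod is an agonist of Toll-like receptor 7, an endosomal sensor of single-stranded RNA that B cells, plasmacytoid dendritic cells and other myeloid cells express. Activated B cells can divide and turn into plasmablasts, which shut down parts of the B cell programme, enlarge the endoplasmic reticulum (ER) and secrete antibody. That enlargement is driven by the transcription factor XBP1 and by the unfolded protein response, the set of pathways that raises ER folding capacity. The spleen also holds T cells, natural killer cells, dendritic cells, macrophages of the red pulp and marginal zone, granulocytes, and, in mice, red cell and platelet precursors.

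The 8 libraries held 35546031 to 67333830 fragments. Levels below are fragment counts scaled to library size with TMM (CPM), for 1 transcript per gene symbol. Where 4 values follow a day, they are wild type replicates 1 and 2 and then knockout replicates 1 and 2. Means carry the SD over the 4 libraries of a day (n = 4). A log2 change is day 2 minus day 0 with genotype as covariate, followed by its standard error (SE). A gene is called when its adjusted p in edgeR's quasi-likelihood test is under 0.05, and "rose" and "fell" are used of called genes only. The replicates are pools of different mice, and p-values measure the spread between these pools. Genes named only to complete a small count, or beside a promoter, were chosen after their values were seen. Markers of spleen were present on both days: Cd79b, a signalling chain of the B cell receptor, was at 312 ± 31 CPM on day 0 and 204 ± 39.9 on day 2, and Spic, a factor of red pulp macrophages, at 6.71 ± 0.452 and 7.56 ± 0.804.

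Eif2ak2 itself was at 23.7, 25, 11.8 and 14.4 CPM on day 0, and the day 2 libraries were at 31.5, 41.5, 46.2 and 21.5. Before treatment both knockout libraries lay below both wild-type libraries, whereas knockout day 2 replicate 1 lay above both of them and replicate 2 below. The library labelled knockout day 2 replicate 1 therefore went against its label on this measure, and values without it are given beside the number of genes called and the differences between genotypes. Over both genotypes the level rose by 0.97 ± 0.28 (SE) on the log2 scale (adjusted p = 0.0201). The call was lost without wild type day 0 replicate 1, wild type day 2 replicate 2 or either knockout day 0 library and without the filter on low counts (adjusted p 3.14e-04 to 0.0836 over all alternatives). Without knockout day 2 replicate 1 the change was 0.60 (adjusted p = 3.14e-04).

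The day separated the libraries more than any other difference among them. Of 17993 genes tested, 10627 were called (59.1%), with 5447 higher on day 2 (30.3%) and 5180 lower (28.8%). Rises of at least 2-fold were called for 2576 genes (14.3%) and falls of that size for 2063 (11.5%), and those of at least 4-fold for 1175 (6.53%) and 639 (3.55%). In 4966 genes (27.6%) all 4 day 2 libraries lay above all 4 of day 0, and in 4713 (26.2%) below. On the first principal component of the 2000 most variable genes, which held 89.3% of their variance, day 0 libraries lay between -63.3 and -56.2 and day 2 libraries between 53.8 and 71.0. Knockout day 2 replicates 1 and 2 lay at the ends of the second component, which held 3.13%, at 13.96 and -22.9. Without knockout day 2 replicate 1 the filter kept 18790 genes, and 10170 of them were called. The count for the knockout alone without that library, given next, is out of the same 18790. The wild type alone gave 7285 calls (40.5%) and the knockout alone 8150 (45.3%), or 6787 without that library. The 2 genotypes' changes, measured in separate libraries, correlated across the 17993 genes at Pearson's r = 0.908 and Spearman's rho = 0.890. Without knockout day 2 replicate 1 the values were 0.842 and 0.827 over the 18790 genes of that fit, so the gene set differs as well. All are descriptions over genes that share library depth and gene length. In both genotypes 3491 of the 17993 genes were called higher and 2853 lower, and 1 gene, the Y-linked pseudogene Mid1-ps1, was called in opposite directions. These counts were not repeated without knockout day 2 replicate 1.

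**Figure D1:**
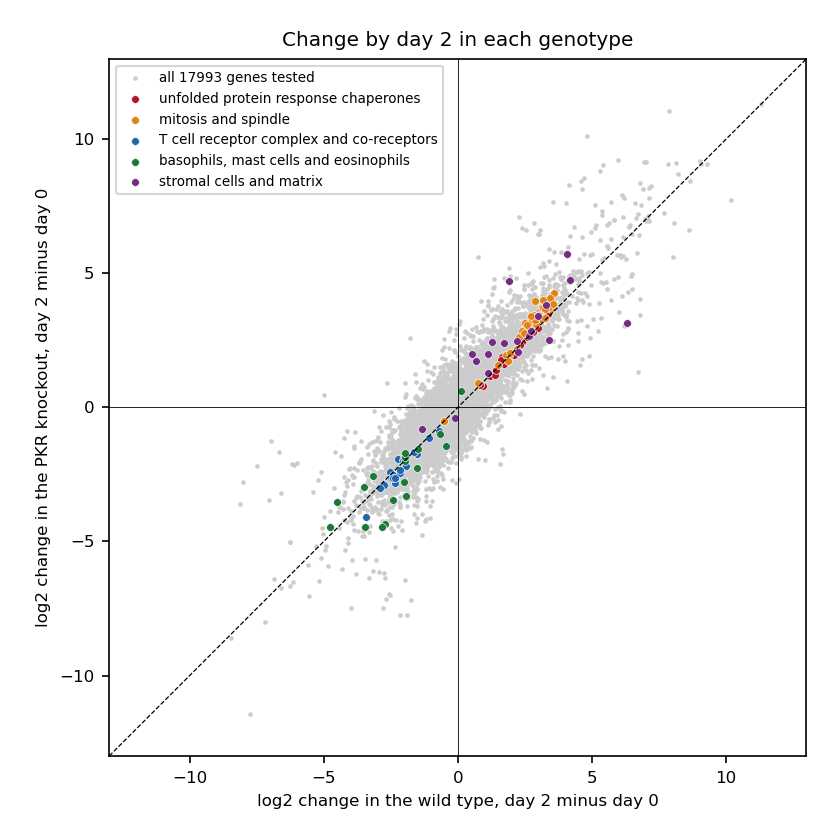
Log2 change by day 2 in the wild type (x axis) against that in the PKR knockout (y axis) for each of 17993 genes, each point 1 gene, with 5 gene lists in colour and the line of equal change dashed. Chaperone and mitosis genes lie to the upper right in both genotypes and T cell genes to the lower left, with r = 0.908 over all genes.

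Most gene lists moved mainly in 1 direction. Among lists with 5 or more members tested, the highest medians were those of mitosis, plasma cell factors, immunoglobulin constant genes, stroma and DNA replication, and the lowest those of basophils with mast cells and eosinophils, T cell receptor genes and lymphocyte homing. In the plot of members called per list, the shares of genes higher and lower can be read against 30.3% and 28.8% over all genes.

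**Figure D2:**
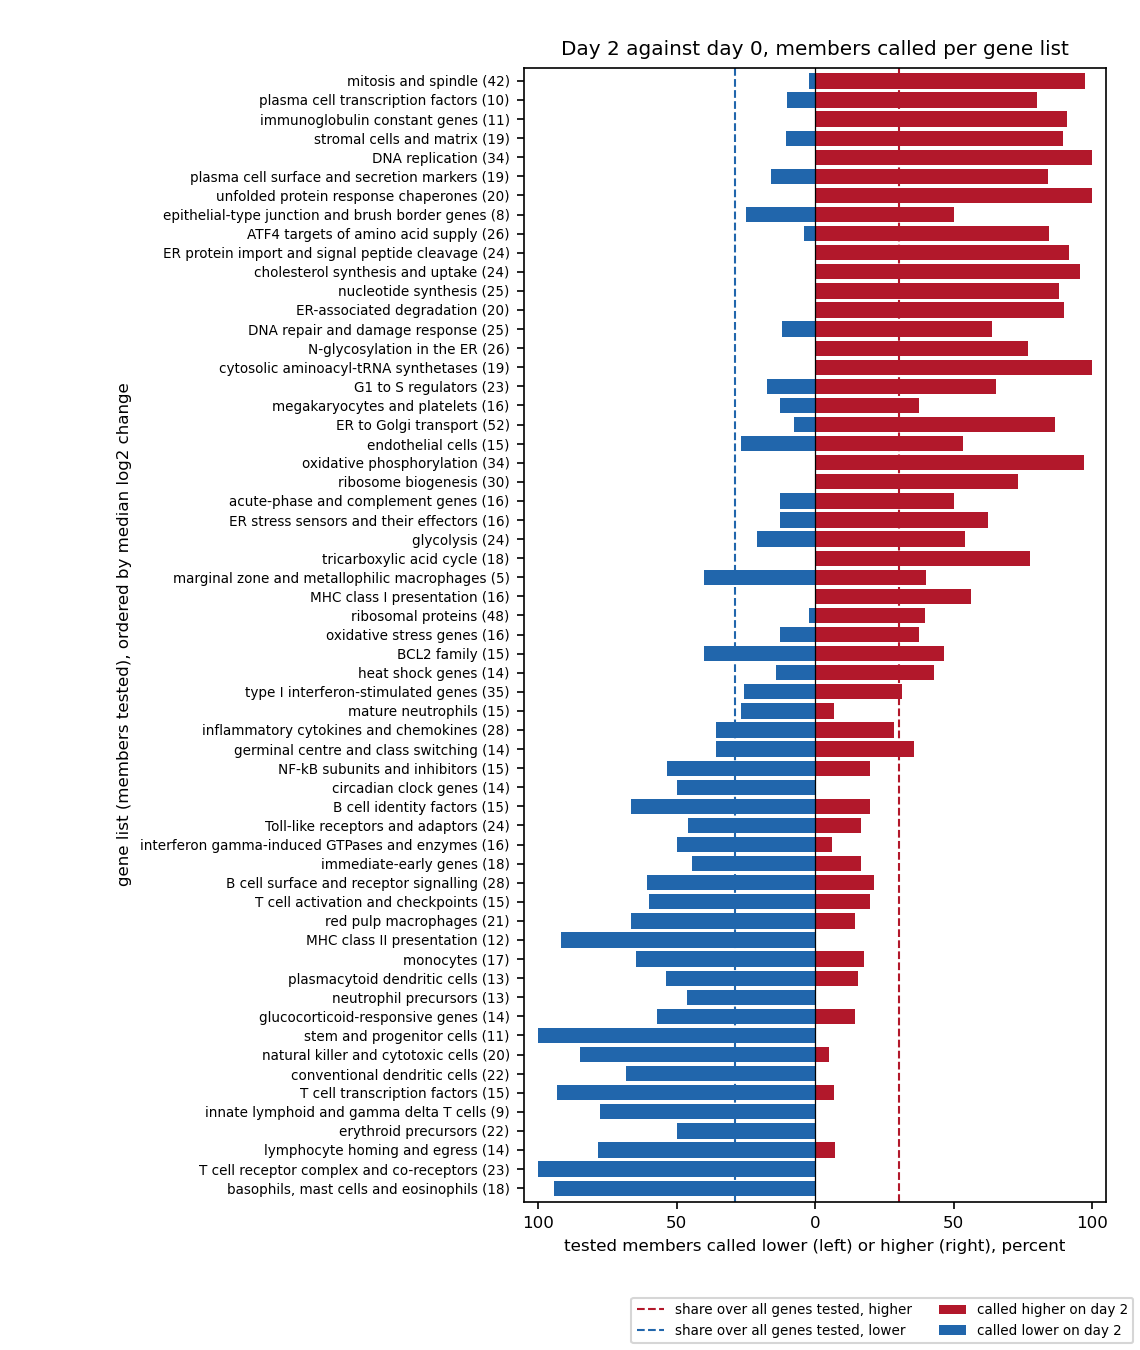
Percent of the tested members of each gene list called higher (red, right) or lower (blue, left) on day 2 than on day 0, lists ordered by median log2 change with the number of members tested in brackets. Dashed lines mark the shares over all genes tested, 30.3% higher and 28.8% lower.

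Most listed genes of antibody-forming cells rose. Among the transcription factors of plasma cells, 8 of 10 rose (median log2 change 2.75, against -0.01 over all genes), Ikzf3 fell by 0.34 and Zbtb20 was not called. Prdm1, which encodes BLIMP-1, the repressor that ends the B cell programme, was at 6.18, 5.40, 4.70 and 5.59 CPM on day 0 and 50.5, 46, 69.2 and 39.6 on day 2. Xbp1 was at 49.5, 40.6, 46 and 47 CPM and then 536, 463, 687 and 405, and Bhlha15 (MIST1, a factor that enlarges secretory cells) at 2.07, 1.15, 1.30 and 1.24 and then 38, 29.3, 42 and 28.8. No day 0 library came near a day 2 library in these 3 genes, and knockout replicate 1 was the highest of day 2 in Prdm1 and Xbp1. Their log2 changes were 3.23 ± 0.17, 3.51 ± 0.16 and 4.60 ± 0.21 (SE), with adjusted p of 2.63e-08, 1.47e-09 and 6.35e-09. Irf4, needed for plasma cell formation, rose by 1.37, Ell2, an elongation factor that favours the secreted form of immunoglobulin mRNA, by 3.24, and Creb3l2, a membrane-bound transcription factor of secretory cells, by 3.05.

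Immunoglobulin constant genes rose with them, 10 of 11 (median 2.41), all but Igha. Ighm, the heavy chain of IgM, stood at 2188, 1824, 1486 and 1464 CPM on day 0 and 21900.0, 15948, 22859 and 13529 on day 2, a change of 3.43 ± 0.20 (adjusted p = 4.28e-09). Igkc, the constant part of the kappa light chain, rose by 2.98, Jchain, which joins IgM and IgA into polymers, by 2.96, and the IgG genes Ighg2b, Ighg2c and Ighg3 by 3.30, 2.65 and 2.62. In contrast Ighd, the IgD heavy chain of naive B cells, fell by 1.67, from 346 ± 25.9 to 109 ± 10.9 CPM. Igha, the IgA heavy chain, was at 26.5, 17.9, 144 and 120.0 CPM on day 0 and 73.5, 67, 22.3 and 67.9 on day 2. On day 0 both knockout libraries were above both wild-type libraries, and on day 2 knockout replicate 1 was below them. From day 0 to day 2 Igha was higher in both wild-type libraries and lower in both knockout libraries, without overlap. The change of 0.05 over both genotypes averages these opposite moves and was not called. Of the surface and secretion markers of plasma cells, 16 of 19 rose and 3 fell (median 2.06). Sdc1, the plasma cell surface proteoglycan CD138, rose by 2.91, Mzb1, an ER co-chaperone of marginal zone and plasma cells, by 3.25, and Tnfrsf17, the survival receptor BCMA, by 2.54. The 3 that fell were Prg2 (-1.84), also a protein of eosinophil granules, the chemokine receptor Cxcr4 (-1.70) and the integrin Itga4 (-0.88).

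Genes of resting B cells moved less and mostly down. Of B cell surface and receptor-signalling genes 17 of 28 fell and 6 rose (median -0.52). The largest named falls were of Fcer2a (CD23, the low-affinity IgE receptor) by 2.29 and Cr2 (complement receptor CD21) by 2.13. Cr2 was at 268, 274, 278 and 336 CPM on day 0 and 52.1, 70.1, 75.9 and 65.7 on day 2, so that the days did not overlap. Ms4a1 (CD20) fell by 0.86 and Cd79b by 0.62. Pax5, the central B cell identity factor, was at 247 ± 17.7 and 228 ± 11.8 CPM and was not called (adjusted p = 0.316). Of 15 B cell identity factors 10 fell and 3 rose (7 and 3 without knockout day 2 replicate 1). Ebf1, Ets1 and Spib, further B cell factors, fell by 1.03, 1.37 and 1.10, while Pou2af1, a co-activator of immunoglobulin genes, rose by 1.36 and Irf8 by 0.98. Germinal centre genes split evenly, 5 higher and 5 lower of 14, with a median of -0.04 that turned positive when all transcripts were summed: Mybl1, a transcription factor of germinal centre B cells, rose by 2.69 and Rgs13, a germinal centre signalling regulator, fell by 3.37. In these bulk libraries fewer cells of a type and less RNA per cell cannot be told apart, for B cells as for every cell type below. Nor can more cells and more RNA per cell be told apart, for the antibody genes above and the rises below.

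The secretory pathway rose as a whole, from entry into the ER to the Golgi. All 20 tested chaperones of the unfolded protein response rose (median 1.85), as did 22 of 24 genes of ER import and signal peptide cleavage (median 1.40), 20 of 26 of N-glycosylation (median 0.97), 18 of 20 of ER-associated degradation (median 1.02) and 45 of 52 of ER to Golgi transport (median 0.79). Of these lists only the last had members that fell: the coat subunit Sec24b, the exit site scaffold Sec16b, the cargo receptor Tmed8 and the Golgi SNARE Gosr1, by 0.49, 1.81, 0.45 and 0.28. The same lists without knockout day 2 replicate 1 gave 20, 22, 20, 18 and 44 members higher.

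Several of these genes carry the ER stress response element in the stretch before their start. The element is read by ATF6 with the factor NF-Y and by XBP1, and consists of CCAAT, 9 bases of any kind and CCACG. Within 250 bases before the RefSeq gene start, on either strand, it was found in 6 of 16 chaperone promoters with a table entry (37.5%), in 33 of 27025 promoters of the whole table (0.122%) and in 21 of 10992 promoters of genes tested (0.191%). The element includes the CCAAT box, which was counted also on its own and stood in 93.8% of the chaperone promoters and 34.5% of all. Of the 21 tested genes with the element, 12 rose and 6 fell (median 0.96), shares of 57.1% and 28.6%. Among the 10971 tested genes with a promoter but no element the shares were 32.3% and 30.7%, so the share that fell was near that of other genes. The 12 include Hspa5, Hsp90b1, Calr, Pdia6, Canx, Dnajc3, Syvn1, Creld2, Derl3 and Alg12, all of the ER, and the 6 that fell include Ptgdr2, Adcy3 and 3 copies of the Xlr3 family (Xlr3a, Xlr3b and Xlr3c), whose reads may be shared. A match is a description of letters, and binding was not measured. The 7 promoter stretches below, from RefSeq on GRCm38.p6 and written 5′ to 3′ on the strand of the gene, show the element in ER genes that rose; capitals mark the element, which starts with CCAAT or, on the opposite strand, with CGTGG.
Creld2: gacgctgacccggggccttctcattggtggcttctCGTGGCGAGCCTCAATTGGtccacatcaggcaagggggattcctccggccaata
Derl3: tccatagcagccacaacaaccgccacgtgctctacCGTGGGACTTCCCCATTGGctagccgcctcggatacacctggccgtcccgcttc
Pdia6: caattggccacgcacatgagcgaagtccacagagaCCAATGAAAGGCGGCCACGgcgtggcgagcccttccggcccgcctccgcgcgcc
Calr: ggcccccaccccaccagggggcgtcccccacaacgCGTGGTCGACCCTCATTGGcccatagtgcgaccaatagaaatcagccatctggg
Syvn1: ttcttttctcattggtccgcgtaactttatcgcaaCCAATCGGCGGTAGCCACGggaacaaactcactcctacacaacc
Dnajc3: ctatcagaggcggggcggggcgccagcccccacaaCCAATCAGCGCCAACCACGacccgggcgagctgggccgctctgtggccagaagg
Canx: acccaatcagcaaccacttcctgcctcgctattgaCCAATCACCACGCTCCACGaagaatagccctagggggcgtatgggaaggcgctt
These stretches lie at chr15:88819485-88819573 (plus strand) for Creld2, chr10:75893207-75893295 (plus strand) for Derl3, chr12:17266456-17266544 (plus strand) for Pdia6, chr8:84847040-84847128 (minus strand) for Calr, chr19:6046497-6046575 (plus strand) for Syvn1, chr14:118937792-118937880 (plus strand) for Dnajc3 and chr11:50325765-50325853 (minus strand) for Canx, all within the 250 bases before the RefSeq start of the gene.

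The genes behind these 7 promoters differed in how far they rose. Creld2, a resident ER protein with disulfide-isomerase activity, was at 13, 10.3, 10.7 and 8.21 CPM on day 0 and 205, 177, 193 and 161 on day 2 (4.13 ± 0.13). Derl3, a derlin that helps move misfolded proteins out of the ER, was at 3.99, 2.21, 1.97 and 1.60 and 72.7, 57.6, 65.2 and 53.3 (4.70 ± 0.22). Pdia6, a protein disulfide isomerase, was at 58.9, 49.5, 59.1 and 52.9 and 442, 409, 488 and 377 (2.96 ± 0.12). All 3 were higher in every day 2 library than in any day 0 library. Calr, the lectin chaperone calreticulin, rose by 2.18 ± 0.10, and Canx, its membrane-bound relative calnexin, by 1.19 ± 0.10. Syvn1, the ubiquitin ligase HRD1 of ER-associated degradation, rose by 1.47 ± 0.10 and Dnajc3, an HSP70 co-chaperone also known as an inhibitor of eIF2alpha kinases including PKR, by 1.29 ± 0.09. Adjusted p of these 7 lay between 6.87e-11 and 1.13e-07.

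Other chaperones showed the same separation of days. Hsp90b1 (GRP94, the ER member of the HSP90 family) stood at 257, 267, 264 and 305 CPM and then 2229, 1846, 2746 and 1925, a change of 3.00 ± 0.14. Hspa5 (BiP, the ER member of the HSP70 family and partner of the stress sensors) rose by 2.03, Sdf2l1, a partner of its co-chaperones, by 3.43, Manf, a secreted ER protein that binds BiP, by 2.81, and Hyou1, its nucleotide exchange factor, by 2.59. At the import step Sec61a1, the channel itself, rose by 2.19, Ssr2 of the translocon-associated complex by 2.90, and Sec11c, a catalytic subunit of signal peptidase, by 2.06. Of the oligosaccharyltransferase, Rpn1, Rpn2, Ddost and Ostc rose by 2.58, 1.94, 2.26 and 1.89. Of its 2 alternative catalytic subunits, Stt3a rose by 1.71 and Stt3b was not called (adjusted p = 0.981).

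Transport out of the ER held the largest change of the pathway. Tmed6, a p24 cargo receptor, was at 0.0843, 0.0597, 0.0598 and 0.0729 CPM on day 0, close to absence, and at 41.9, 36.6, 46.3 and 27.8 on day 2. Its log2 change was 9.08 ± 0.24 (adjusted p = 5.30e-11). Sec24d, which selects cargo for COPII vesicles, rose by 3.22, Lman1, the lectin that carries glycoproteins to the Golgi, by 2.82, Ergic1 by 2.33 and Kdelr2, the receptor that returns resident proteins to the ER, by 1.98. Thiol enzymes of folding rose too: Prdx4, the peroxiredoxin of the ER, by 2.71, and Ero1lb and Ero1l, the oxidases that feed disulfide isomerases, by 0.72 and 0.46.

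The sensors of ER stress did not move together, 10 of 16 higher and 2 lower (median 0.54). Atf6, the sensor that is cut into a transcription factor, rose by 2.17 ± 0.09, and Ern1, the IRE1 kinase and ribonuclease that splices Xbp1 mRNA, by 1.38 ± 0.10. Eif2ak3, the PERK kinase that phosphorylates the same site of eIF2alpha as PKR, was at 50.5, 50.4, 48.7 and 48.5 CPM on day 0 and 64.8, 52, 55.2 and 43.4 on day 2 and was not called (adjusted p = 0.357). Ddit3, the CHOP factor of terminal ER stress, was at 6.66, 6.79, 7.51 and 6.12 and 7.05, 6.62, 4.47 and 8.28 and was not called either. The days overlapped in both genes. Atf4, translated when eIF2alpha is phosphorylated, rose by 0.45, and Bbc3 and Ddit4, which promote cell death and restrain growth, fell by 1.20 and 1.66.

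Genes of amino acid supply rose. Of the ATF4 targets of this kind 22 of 26 rose (median 1.61), Cebpb fell by 0.54, and Slc7a11, Slc38a2 and Cebpg were not called. Slc7a3, a transporter of cationic amino acids, was at 0.0422, 0.164, 0.120 and 0.0971 CPM on day 0 and 4.01, 5.49, 5.15 and 4.95 on day 2 (5.43 ± 0.27). Pycr1, the last enzyme of proline synthesis, was at 0.485, 0.254, 0.399 and 0.291 and 12, 8.09, 14.5 and 8.08 (4.90 ± 0.27). The serine enzymes Phgdh and Psat1 rose by 1.89 and 2.53, the mitochondrial one-carbon enzyme Shmt2 by 2.20, and Asns, asparagine synthetase, by 3.01. All 19 tested cytosolic aminoacyl-tRNA synthetases rose (median 0.95), led by Yars (1.93) and Aars (1.60), the enzymes for tyrosine and alanine; without knockout day 2 replicate 1 the number was 18.

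**Figure D3:**
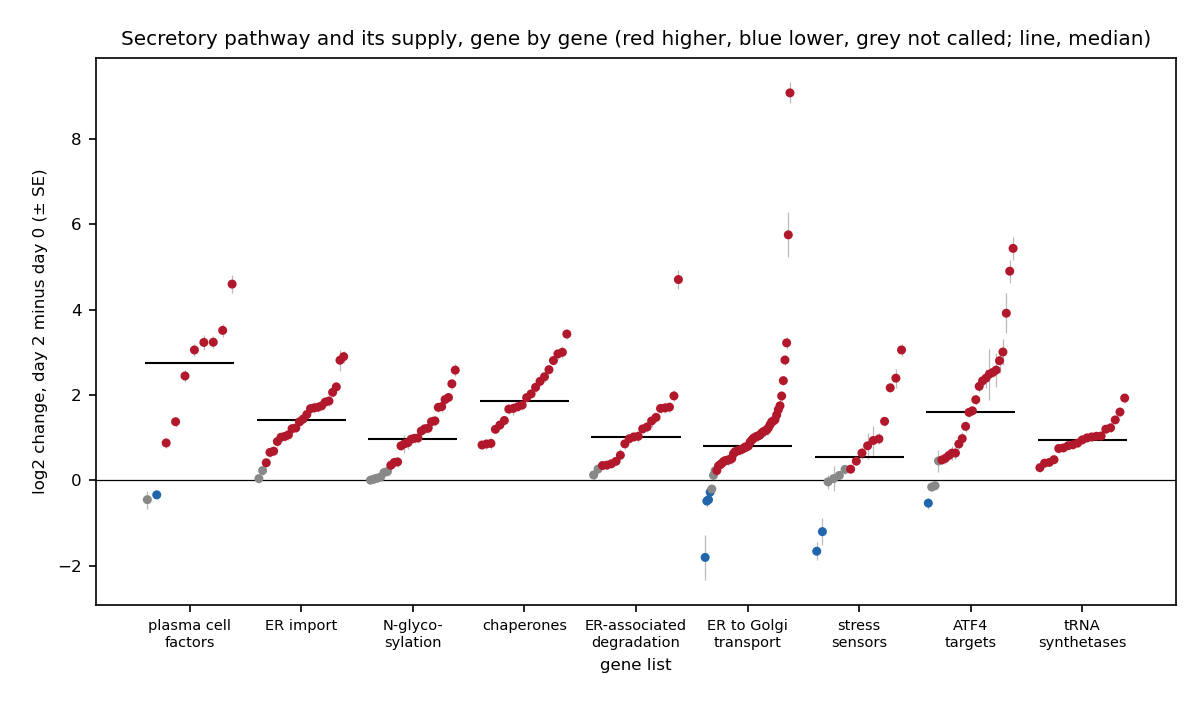
Log2 change from day 0 to day 2 with its SE (y axis) for each tested member of 9 gene lists along the x axis, ordered by size within a list. Red points were called higher, blue lower and grey not called, and black lines mark list medians, from 0.54 in stress sensors to 2.75 in plasma cell factors; Tmed6 is the highest point, at 9.08.

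Cell division genes rose in nearly all members tested. All 34 DNA replication genes rose (median 2.15), with 22 of 25 nucleotide synthesis genes (median 1.05) and 41 of 42 genes of mitosis and the spindle (median 3.08). The single mitosis gene that fell was Pttg1, securin, by 0.52. Plk1, the kinase that drives entry into mitosis and centrosome maturation, was at 2.59, 3.61, 2.39 and 1.99 CPM on day 0 and 34, 33.6, 42.6 and 32.4 on day 2 (3.74 ± 0.17, adjusted p = 1.77e-09). Mki67, the proliferation marker Ki-67, was at 71.1, 166, 73.3 and 124 and 869, 812, 1242 and 819.8 (3.11 ± 0.34). The spread of Mki67 on day 0 was wider, with wild type replicate 2 the highest. Of replication factors, Mcm10 rose by 3.77, Cdc45 by 3.50, and the chromatin assembly subunit Chaf1a by 3.50. Tyms, thymidylate synthase, rose by 3.06 and Rrm2, the small subunit of ribonucleotide reductase, by 3.38.

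Regulators of the step into S phase were more mixed, with 15 of 23 higher and 4 lower. Ccne1, cyclin E1, rose by 2.48, and the E2F factors E2f1 and E2f7 by 2.36 and 3.36. Cdkn1b, the inhibitor p27, fell by 1.06, as did Ccnd1, Mycn and Rbl2 (-2.26, -1.83 and -0.62). Myc, at 32.7 ± 4.18 and 29.9 ± 5.81 CPM, was not called. Of DNA repair genes 16 of 25 rose, while the damage kinases Atm, Atr and Prkdc fell (-0.84, -0.56 and -0.26).

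Promoters of mitotic genes are known for a pair of elements, the cell cycle homology region (CHR) bound by the DREAM and MuvB complexes and CCAAT boxes bound by NF-Y. A CHR, read as TTTGAA or TTCGAA on either strand, stood in 12 of 33 mitosis promoters (36.4%), in 17.4% of all and in 13% of genes tested, and a CCAAT box in 75.8% and 34.5%. The E2F core, GCGCGAA or GGCGGGA, on either strand, stood in 54.5% of nucleotide synthesis and 37% of DNA replication promoters, against 10.8% of all and 19.9% of genes tested. Such shares were not particular to cell division lists. The E2F core stood in 37.5% of cholesterol and 31.2% of chaperone promoters, and in 0% of stromal and T cell receptor promoters. A CHR stood in 33.3% of stromal and 6.25% of cholesterol promoters. CCAAT boxes stood in 87.5% of cholesterol, 25% of stromal and 15.4% of T cell receptor promoters. Below are 3 mitosis promoters of RefSeq on GRCm38.p6 that hold both a CHR and a CCAAT box, shown because these genes rose together; capitals mark each box, with ATTGG and TTCAAA as the opposite-strand forms.
Cdc20: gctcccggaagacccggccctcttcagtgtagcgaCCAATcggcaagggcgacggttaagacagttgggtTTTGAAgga
Kif11: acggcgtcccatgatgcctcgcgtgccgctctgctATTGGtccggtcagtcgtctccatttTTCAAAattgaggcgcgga
Espl1: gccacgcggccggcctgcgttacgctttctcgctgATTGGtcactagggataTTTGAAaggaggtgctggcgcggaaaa
They lie at chr4:118437353-118437431 (minus strand) for Cdc20, chr19:37376302-37376381 (plus strand) for Kif11 and chr15:102296214-102296292 (plus strand) for Espl1. Cdc20, the activator of the anaphase-promoting complex, was at 4.55, 4.94, 3.91 and 3.25 CPM on day 0 and 56.8, 48.6, 55.7 and 35.5 on day 2 (3.56 ± 0.15). Kif11, a motor that separates spindle poles, rose by 3.02 ± 0.20 and Espl1, separase, which cuts cohesin, by 3.56 ± 0.16.

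Metabolic genes rose by smaller factors. Of oxidative phosphorylation genes 33 of 34 rose (median 0.67), all but Sdha, and of the tricarboxylic acid cycle 14 of 18 (median 0.44). Cholesterol synthesis and uptake rose in 23 of 24 members (median 1.12), among them Fdps by 2.25 and Sqle by 1.95. Glycolysis was split, 13 of 24 higher and 5 lower: Hk2, an inducible hexokinase, rose by 2.01 and Pkm, pyruvate kinase, by 1.38, while Ldhb, the heart-type lactate dehydrogenase subunit, fell by 2.29 and the glucose transporter Slc2a3 by 1.10. Ribosome biogenesis rose in 22 of 30 members (median 0.59). Ribosomal proteins rose in 19 of 48 (median 0.21), but in 10 or 11 without wild type day 2 replicate 1, wild type day 2 replicate 2 or knockout day 2 replicate 1; these genes have many pseudogenes whose reads may be shared.

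T cell receptor genes fell. All 23 tested genes of the T cell receptor complex and co-receptors fell (median -2.30), and 23 fell without knockout day 2 replicate 1. Cd3e, a signalling chain of the receptor, was at 28.8, 29.3, 28.3 and 27.6 CPM on day 0 and 5.17, 4.96, 2.52 and 7.92 on day 2. Cd4 was at 63.3, 50.9, 56.7 and 55.5 and 9.46, 11.2, 5.67 and 12.7, and Cd8a at 42.8, 35.7, 38.7 and 43.1 and 6.68, 8.05, 5.51 and 8.85. In all 3 genes knockout replicate 1 was the lowest library of day 2 and knockout replicate 2 the highest, and all 4 lay below every day 0 library. The log2 changes were -2.47 ± 0.29, -2.53 ± 0.22 and -2.46 ± 0.14, with adjusted p of 1.35e-04, 9.97e-06 and 5.70e-09. Cd4 marks helper and Cd8a killer T cells, and the difference between their falls was not tested. Trat1, an adaptor of the receptor, fell by 3.73 and Themis, a signalling regulator, by 2.96.

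Among T cell transcription factors 14 of 15 fell (median -1.49), including Tcf7 and Lef1 of naive cells by 1.83 and 2.46, Bcl11b by 2.30, and Foxp3, the regulatory T cell factor, by 1.49. Tbx21, the T-bet factor that B cells and natural killer cells also express, rose by 0.51. Homing and egress genes fell in 11 of 14: S1pr1, the receptor that lets lymphocytes leave, fell by 1.91 and Ccr7, the receptor for T zone chemokines, by 1.44. Cxcr3, a receptor of activated lymphocytes, rose by 0.88. Of activation and checkpoint genes 9 of 15 fell, such as Cd40lg by 3.41 and Icos by 2.20, and 3 rose, Ctla4 by 1.30, Lag3 by 0.62 and Tigit by 0.93.

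Natural killer and cytotoxic genes fell in 17 of 20 members (median -1.33), 16 without knockout day 2 replicate 1. Klrd1 (CD94) was at 13.9, 13.6, 17.1 and 21.3 CPM on day 0 and 3.06, 3.63, 3.51 and 3.18 on day 2, and Ncr1, the receptor NKp46, fell by 1.36. Granzymes did not follow the receptors: Gzmb rose by 1.82 and Gzma, at 34.7 ± 7.36 and 33.2 ± 2.25 CPM, was not called. Of innate lymphoid and gamma delta T cell genes 7 of 9 fell, among them Trdc, the delta chain constant gene, by 2.54.

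**Figure D4:**
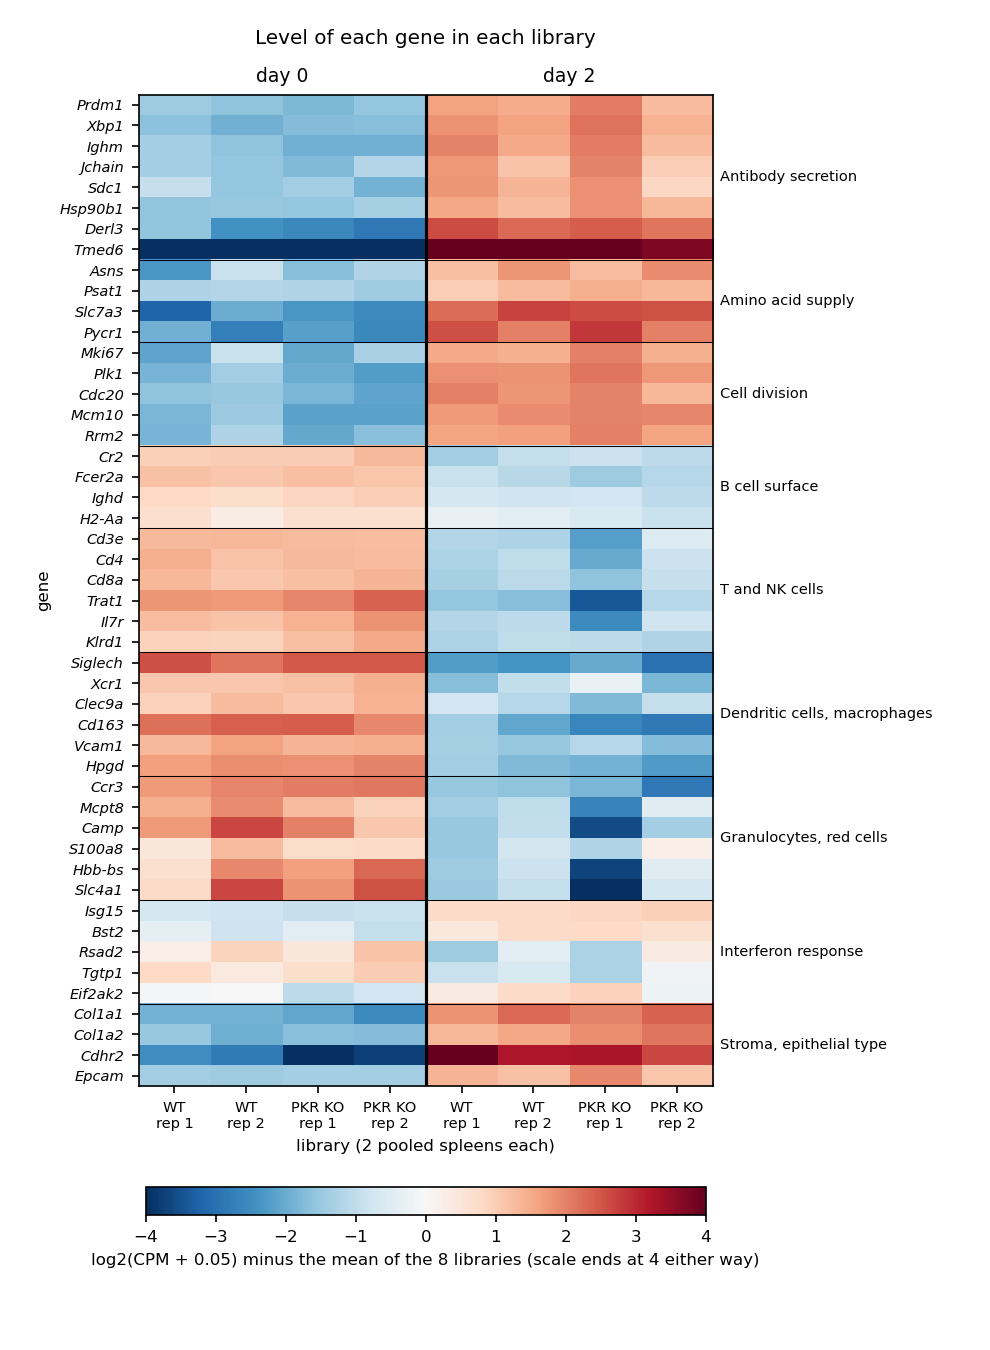
Level of 48 genes (rows) in the 8 libraries (columns, 2 pooled spleens each), as log2(CPM + 0.05) minus the gene's mean over the libraries, red above and blue below that mean. Day 0 and day 2 columns take opposite colours in most rows, and knockout day 2 replicate 1 is the lowest library for Cd3e, Camp, Hbb-bs and Slc4a1.

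Dendritic cell genes fell in both classes. Of conventional dendritic cell genes 15 of 22 fell and none rose (median -1.41). Clec9a, a receptor for dead cells on cross-presenting dendritic cells, was at 3.77, 4.91, 4.22 and 5.27 CPM on day 0 and 1.15, 0.873, 0.548 and 1.000 on day 2 (-2.35 ± 0.22). Xcr1, the chemokine receptor of the same cells, fell by 2.40, Flt3, the growth factor receptor of dendritic cells, by 1.78, and Clec10a and Clec4a4, lectins of other dendritic cells, by 2.76 and 2.60. Cd209a (DC-SIGN) was at 6.26, 4.85, 6.86 and 8.33 CPM on day 0 and 0, 0.0397, 0 and 0 on day 2, near absence, and Cd209d, a lectin of the same cluster, at 1.10, 0.820, 0.837 and 1.29 and at 0 in all 4 day 2 libraries, at least 13.3-fold lower against a floor of 3 counts per library. Siglech, a surface marker of plasmacytoid dendritic cells, was at 8.31, 6.12, 7.63 and 7.72 and 0.253, 0.218, 0.301 and 0.128 (-5.04 ± 0.23, adjusted p = 5.33e-10). Of that cell type 7 of 13 genes fell, and Bst2 and Ly6d, both also expressed elsewhere, rose (1.29 and 0.82). Tcf4, its lineage factor, and Ccr9 were not called.

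Macrophage and monocyte genes were mostly lower. Of red pulp macrophage genes 14 of 21 fell and 3 rose (median -0.69). Cd163, the scavenger receptor for haemoglobin, was at 5.93, 6.76, 6.94 and 4.93 CPM and then 0.449, 0.258, 0.164 and 0.128 (-4.64 ± 0.26). Vcam1, an adhesion molecule of these macrophages, fell by 2.85, Hpgd, a prostaglandin-degrading enzyme, by 3.68, and Trf, transferrin, by 3.64. Spic, the factor that defines the cells, was not called (adjusted p = 0.231) and Cd5l, a secreted macrophage protein, rose by 0.71. Only 5 of 10 marginal zone macrophage genes were tested: Marco, a scavenger receptor, and Nr1h3, the LXR-alpha factor, rose by 1.12 and 1.64, the 2 Cd209 lectins fell, and Siglec1 was not called. Of monocyte genes 11 of 17 fell, such as Ccr2 by 1.60, Csf1r by 1.06 and Ace by 1.66, and Ly6c2, Plac8 and Ms4a6c rose by 1.62, 0.67 and 0.49.

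Genes of basophils, mast cells and eosinophils fell in 17 of 18 members (median -2.46), the lowest median of all lists. Ccr3, the eotaxin receptor, was at 8.37, 10.1, 10.7 and 11.2 CPM on day 0 and 0.870, 0.813, 0.685 and 0.308 on day 2 (-3.91 ± 0.23). Ear1 and Ear6, eosinophil-associated ribonucleases of a family of near copies, fell by 4.66 and 4.06, and the basophil proteases Mcpt8 and Prss34 by 2.89 and 2.80. Neutrophil precursors fell in 6 of 13, among them Ltf (lactoferrin), Ngp and Camp (cathelicidin), proteins of secondary granules. Camp was at 28.7, 55.8, 36 and 18.7 CPM on day 0 and 3.03, 4.44, 0.685 and 3.38 on day 2. The days did not overlap, knockout day 2 replicate 1 was the lowest library, and the change was -3.60 ± 0.51. Elane and Mpo, of primary granules, were not called (-0.79 and -0.72). Mature neutrophil genes gave 4 lower and 1 higher of 15, with a median of 0.02; 2 were lower without knockout day 2 replicate 1, as many without wild type day 2 replicate 2, and 8 without knockout day 2 replicate 2, and the median turned negative in 7 of 17 alternatives. The shares of mature neutrophil genes lower and higher were 26.7% and 6.67%, beside 28.8% and 30.3% over all genes. Padi4, which citrullinates histones, fell by 1.15, and Cxcr2 was not called (adjusted p = 0.583).

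Interferon-stimulated genes were split by day 2. Of type I interferon genes 11 of 35 were higher than on day 0 and 9 lower, shares of 31.4% and 25.7% that lie near the 30.3% and 28.8% over all genes (median 0.07, which turned to -0.01 without knockout day 2 replicate 2). Isg15, a ubiquitin-like modifier, was at 4.70, 4.45, 4.05 and 4.15 CPM on day 0 and 13.1, 13.1, 13.6 and 15 on day 2 (1.66 ± 0.11). Bst2 (tetherin), Ifi27l2a and Oasl1 also rose, by 1.29, 1.53 and 1.11. Ifit3, an antiviral RNA-binding protein, fell by 0.62, and Irf7, the amplifier of interferon genes, was not called (adjusted p = 0.181). Genes that respond mainly to interferon gamma fell in 8 of 16, among them Tgtp1 and Tgtp2, near copies of each other, by 1.40 and 1.08; Acod1, the itaconate enzyme of activated macrophages, rose by 2.73. Ifng itself fell by 1.63.

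Antigen presentation split by class. MHC class II presentation fell in 11 of 12 members (median -0.77), all but Ifi30: H2-Aa, an alpha chain, by 1.12, the invariant chain Cd74 by 0.58, and Ciita, their master regulator, by 0.74. MHC class I presentation had 9 of 16 higher and none lower (median 0.29), including the peptide transporter Tap1 by 0.70 and the heavy chain H2-K1 by 0.54, a family in which near copies may share reads.

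Cytokines and chemokines went both ways, 8 higher and 10 lower of 28, shares of 28.6% and 35.7% beside 30.3% and 28.8% over all genes (median -0.03, which was positive without knockout day 2 replicate 1). Il10, which dampens inflammation, was at 0.401, 0.254, 0.239 and 0.291 CPM on day 0 and 4.10, 3.45, 2.88 and 4.56 on day 2 (3.67 ± 0.24). Il6 rose by 2.20, from 0.541 ± 0.184 to 2.48 ± 0.689 CPM. Ltb, lymphotoxin beta of lymphocytes, fell by 2.50, while Tnf, at 7.34 ± 1.00 and 7.32 ± 2.40 CPM, and Il1b were not called. Cxcl13, the chemokine of B cell follicles, rose by 2.78. Of NF-kB subunits and inhibitors 8 of 15 fell, among them Rel by 1.12 and Nfkb1 by 0.43, and Bcl3, Nfkbib and Traf1 rose by 0.65, 0.55 and 0.59. Of Toll-like receptors and adaptors 11 of 24 fell. Tlr7, the receptor for imiquimod, was at 28.9, 31.7, 31.2 and 38.2 CPM on day 0 and 21.9, 24.5, 23.7 and 23.7 on day 2 (-0.47 ± 0.10, adjusted p = 7.36e-04), and its adaptor Myd88 was not called.

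Acute-phase and complement genes rose in 8 of 16 members and fell in 2, among them Orm1 (-2.46). Saa3, a serum amyloid A made by macrophages and other cells, was at 0.0633, 0.104, 0.199 and 0.0486 CPM on day 0 and 10.1, 12.9, 9.21 and 23.7 on day 2 (6.98 ± 0.44). Cfb, factor B of the alternative complement pathway, rose by 3.44, and C4b by 2.99. C3 was not called.

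Red cell precursor genes were lower with a wide spread. Of 22 tested, 11 fell and none rose (median -1.53), 9 without knockout day 2 replicate 1, 3 without wild type day 0 replicate 2, and 5 and 7 without wild type day 2 replicates 1 and 2. Their summed level was 371 to 1142 CPM in day 0 libraries and 86.6 to 246 on day 2, lowest in knockout replicate 1. Hbb-bs, an adult beta globin with a near copy that may share its reads, was at 121, 295, 243 and 389 CPM on day 0 and 29.2, 43, 5.92 and 55.7 on day 2. Its adjusted p was 0.0229, from 1.18e-04 to 0.0712 over alternatives. Trim10 fell by 3.45 and kept its call in each of 17 alternatives, and the erythroid factors Klf1 and Gata1 were not called (adjusted p 0.362 and 0.275). Red cells were lysed before RNA extraction, and the part of that step in these levels was not tested.

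Stem and progenitor genes fell in 11 of 11 tested (median -1.20), 9 without knockout day 2 replicate 1 and 7 without wild type day 0 replicate 2. Sox4 fell by 2.63, Kit, the stem cell factor receptor, by 1.52 and Lmo2 by 0.72. The count of megakaryocyte and platelet genes depended on single libraries: 6 of 16 rose, 11 without knockout day 2 replicate 1, and 1 to 3 when any of 6 other libraries was left out. Pf4, platelet factor 4, was at 0.443, 0.776, 0.658 and 0.486 CPM on day 0 and 1.71, 2.80, 0.274 and 1.97 on day 2, below every day 0 library in knockout replicate 1 alone. Its adjusted p was 0.0360 and ran from 7.55e-06 to 0.128 over alternatives.

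Stromal and matrix genes rose in 17 of 19 tested members (median 2.34), 16 without knockout day 2 replicate 1, and 5 of 24 listed were below the filter. Col1a1, a chain of type I collagen, was at 0.253, 0.254, 0.219 and 0.146 CPM on day 0 and 3.87, 5.39, 4.41 and 5.79 on day 2 (4.44 ± 0.24). Col1a2 was at 0.633, 0.448, 0.558 and 0.534 and 4.88, 5.57, 6.99 and 8.62. Every day 2 library was above every day 0 library in both genes. Col3a1 rose by 3.19, the basement membrane collagen Col4a1 by 2.34 and the matrix protein Sparc by 2.07. The summed level of the list rose less, from 48.5 to 61.9 CPM on day 0 to 66.5 to 94.7 on day 2. Cr1l, which fell by 0.27, made up 43.6 ± 5.52 CPM of the day 0 sum. The other member that fell was a collagen gene, Col14a1, by at least 2-fold. Its highest library was at 4.40 CPM on day 0 and 2.69 on day 2. Endothelial genes gave 8 higher and 4 lower of 15, and 5 higher without knockout day 2 replicate 1 or without either knockout day 0 library. Pecam1 (CD31), which leukocytes share, fell by 0.69, and Egfl7, secreted by endothelium, rose by 3.41. The other 3 that fell, each by at least 2-fold, were Ehd3, Flt1 and Ackr1. Their unscaled counts summed to 3903, 312 and 73 over the day 0 libraries and to 945, 93 and 6 over those of day 2.

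Among the largest rises were genes better known from epithelia. Cldn2, a pore-forming claudin of tight junctions, had no counts in any day 0 library and stood at 7.16, 6.68, 6.58 and 7.21 CPM on day 2, at least 115-fold higher against a floor of 3 counts per library. Cdhr2, a protocadherin of the brush border, was at 0.127, 0.0895, 0 and 0.0243 CPM on day 0 and 17.3, 9.18, 9.51 and 6.26 on day 2 (7.40 ± 0.40). Both genes were at or near 0 in the day 0 libraries and well above it in the day 2 libraries. Cldn7, at least 26.4-fold higher, Pcbd1, a pterin enzyme (6.27), and Epcam, an epithelial adhesion molecule (2.83), rose as well. Most other epithelial genes were not called higher: Cdh1 (E-cadherin) fell by 2.75, Lgals4 fell by 0.85, and Krt8, Krt18, Krt19, Cldn3, Cldn4, Cdhr5, Vil1, Esrp1 and Grhl2 were under the filter, none above 0.128 CPM in any day 2 library. Also under the filter, Ocln (occludin) summed to 2 counts on day 0 and 31 on day 2, Elf3 to 0 and 11, and Cdhr1 to 15 and 3. Of 20 listed epithelial genes 8 were tested, 4 rose and 2 fell.

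Markers of tissues next to the spleen or of treated skin were scarce. Pancreatic acinar genes summed to 0.907 to 1.22 CPM on day 0, with 1 of 15 tested, Cela1, not called. On day 2 they summed to 0.842, 0.972, 2.17 and 0.462 CPM, highest in knockout replicate 1. Keratinocyte genes summed to 0.578 to 1.09 and 0.992 to 1.29 CPM, with 2 of 12 tested and neither called. Of hepatocyte genes, Alb and Ttr had no counts on either day, and Apoa2, the single member of 9 tested, rose from 0.0272 ± 0.0317 to 0.414 ± 0.0891 CPM. Other genes among the 12 largest rises were Mamdc2 (6.77), Spon1, the matrix protein F-spondin (6.12), Dnm3, a dynamin (5.97), Crybb1, a crystallin also found in macrophages of the brain (5.91), and the microRNA gene Mir5134, at no more than 0.329 CPM in any library. Among the 12 largest falls were Apol7c (-5.12), an apolipoprotein L of dendritic cells, the complement component C6 (-4.89) and Crisp3 (-4.12), a granule protein.

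Stress and rhythm genes moved in part. Of circadian clock genes none rose and 7 of 14 fell, Nr1d2 by 1.43 among them. Tef and Dbp, output factors of the clock, fell by 1.06 and 1.09. The hour of sampling is not given in the labels. Glucocorticoid-responsive genes fell in 8 of 14, including Tsc22d3 (GILZ) by 1.75, while the metallothioneins Mt1 and Mt2 rose by 2.13 and 2.44 and Fkbp5 and Per1 were not called. Of 18 immediate-early genes 3 rose and 8 fell (median -0.445), shares of 16.7% and 44.4% beside 30.3% and 28.8% over all genes. Jun rose, but its call was lost in several alternatives. Fos was at 69, 77.3, 66.1 and 87.1 CPM on day 0 and 236, 224, 45.3 and 189 on day 2 and was not called (adjusted p = 0.10). Knockout replicate 1 was below every day 0 library and the other 3 day 2 libraries were above them all. Egr3 and Dusp2, early genes of antigen receptor signalling, fell by 2.20 and 1.97. Of the BCL2 family, Bcl2l11 (BIM, which promotes death) and Bcl2l1 (BCL-XL, which prevents it) rose by 1.04 and 1.10, and Bcl2 fell by 0.57.

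Day 2 was then set beside days 1 and 5 in a fit of all 16 libraries, in which both comparisons share the day 2 libraries. Of 18744 genes 42.9% were called between day 2 and day 1 and 45.3% between day 2 and day 5: 20.9% were higher on day 2 than on day 1 and 22.1% lower, and 21.7% and 23.5% were higher and lower than on day 5. Secretory and matrix genes were mostly higher than on either day: 19 and 20 of 20 chaperones were above day 1 and day 5 (medians 1.11 and 1.75), as were 22 and 23 of 24 import genes. Hsp90b1 averaged 289.6 ± 25.4, 598 ± 74.5, 2241 ± 436 and 360.5 ± 82.9 CPM on days 0, 1, 2 and 5. Tmed6 averaged 0.0733 ± 0.0122, 7.89 ± 1.24, 39.2 ± 8.58 and 5.13 ± 1.11 on the same days, and Col1a1 0.231 ± 0.0527, 0.421 ± 0.110, 4.98 ± 0.831 and 3.32 ± 0.776. Stromal genes were above day 1 in 17 and above day 5 in 12 of 19.

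Mitosis genes were above day 1 in 41 of 42 (median 1.02) and mostly level with day 5 (4 higher, 14 lower, median -0.23). Many growth genes were higher on day 1: ribosome biogenesis was lower on day 2 in 29 of 30 (median -0.67), the tRNA synthetases in 11 of 19, ATF4 targets in 11 of 26 and nucleotide synthesis in 13 of 25. Asns, of the ATF4 group, averaged 1.59 ± 0.664, 15 ± 3.87, 12.4 ± 2.93 and 25.1 ± 4.71 CPM on days 0, 1, 2 and 5. Interferon genes had the lowest median of the lists drawn, with 35 of 35 below day 1 (median -1.87), and Isg15 averaged 4.60 ± 0.290, 56.3 ± 14.8, 14 ± 0.715 and 10.4 ± 3.11. Cytokines were below day 1 in 22 of 28 (median -1.14).

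T cell receptor genes were mostly lower on day 2 than on days 1 and 5, and several lists of myeloid cells lower than on day 5. All 23 T cell receptor genes were below day 1 (median -1.38) and 21 below day 5 (median -1.04), and Cd3e averaged 30.2 ± 0.734, 14.1 ± 2.59, 5.25 ± 2.19 and 12.1 ± 0.977 CPM on days 0, 1, 2 and 5. Siglech averaged 7.89 ± 0.958, 0.658 ± 0.275, 0.231 ± 0.0771 and 6.04 ± 0.384. Dendritic cell genes were below day 1 in 12 and below day 5 in 13 of 22. Red pulp macrophage genes were below day 1 in 10 and below day 5 in 19 of 21 (median against day 5 -1.91). Neutrophil precursors were below day 1 in 3 and below day 5 in 12 of 13 (median against day 5 -2.97), and Camp averaged 36.9 ± 16.7, 10.9 ± 9.12, 2.95 ± 1.61 and 35.8 ± 4.01. All 15 mature neutrophil genes were below day 1 (median -1.425), and 4 were below day 5 (median -0.21). Of 22 red cell precursor genes none was called against day 1 (median -0.05), where the spread was wide, and all were below day 5 (median -5.88), with Slc4a1, the red cell anion exchanger, at 65.9 ± 33.3, 11.4 ± 7.86, 5.55 ± 3.65 and 1508 ± 569. Among antibody genes Ighg2c was lower on day 2 than on day 5 (log2 -1.81, adjusted p = 1.53e-04) and averaged 32.8 ± 16.5, 72.5 ± 12.7, 192 ± 46.4 and 694 ± 323 CPM, while Ighm was higher (2.12).

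**Figure D5:**
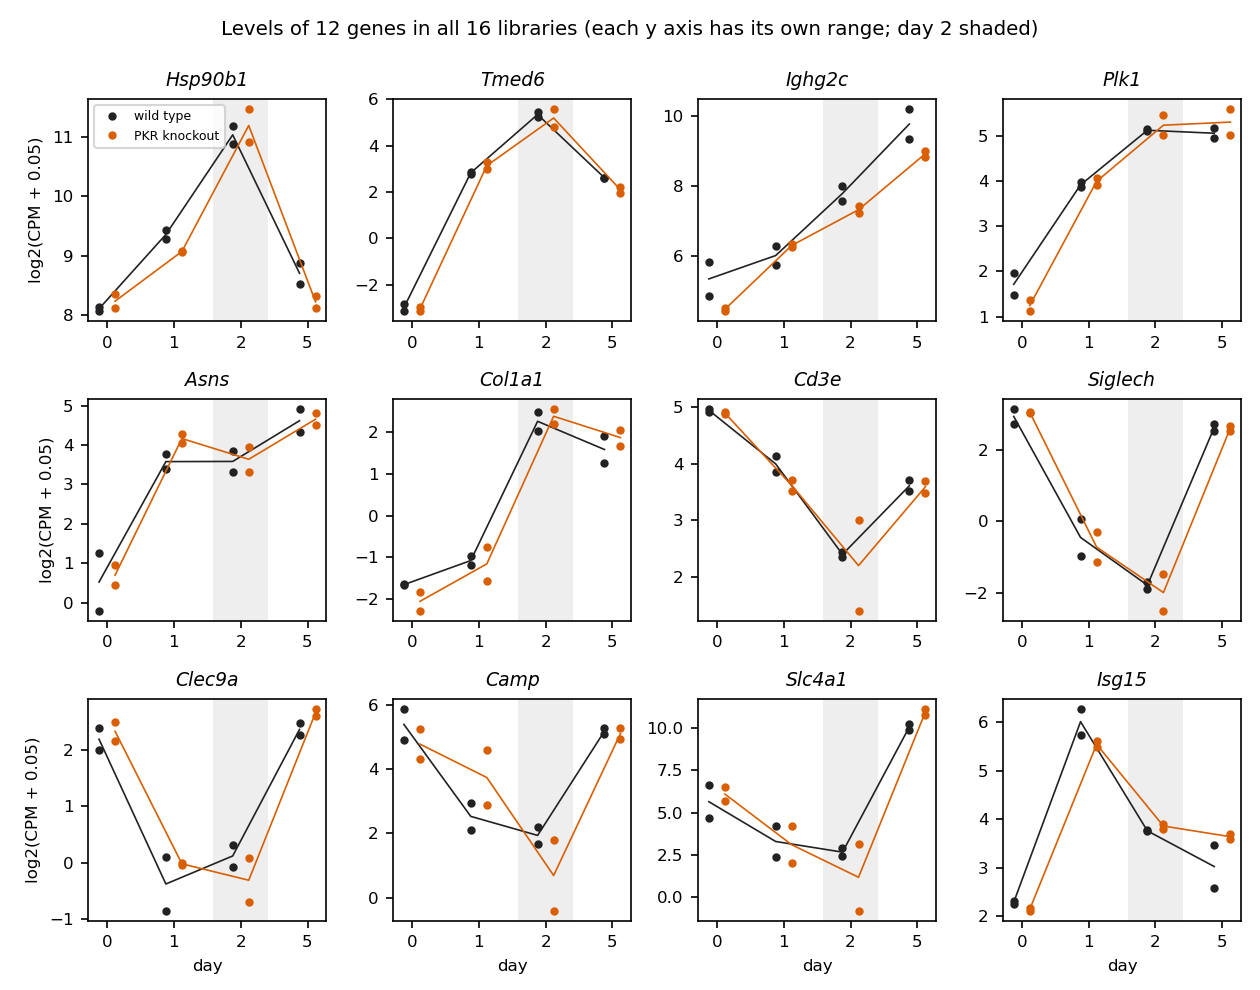
Level of 12 genes in all 16 libraries as log2(CPM + 0.05) (y axis, its own range in each panel) by day (x axis, evenly spaced), points for libraries, lines through genotype means, day 2 shaded. Hsp90b1, Tmed6 and Col1a1 peak on day 2, Cd3e and Siglech are lowest there, and Isg15 peaks on day 1.

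The genotypes were compared in their change from day 0 to day 2. No gene was called by edgeR (smallest adjusted p 0.383), with 526 at an unadjusted p under 0.05, and DESeq2 called 3: F13a1, Serpinb10 and the variable segment Ighv1-34, named because they were called. F13a1, a transglutaminase subunit of monocytes and platelets, was at 18.5, 21.1, 25.2 and 28.1 CPM on day 0 and 16.8, 16.5, 9.64 and 9.87 on day 2. It was higher in both knockout libraries on day 0 and lower in both on day 2, a difference of -1.20 ± 0.20 in log2 change. Stab2, a scavenger receptor of sinusoidal endothelium, was at 4.87, 5.19, 4.90 and 3.69 and 3.51, 6.47, 12.6 and 12.3, above every other library in both knockout libraries of day 2 (1.53 ± 0.35). Sesn1, a stress-induced inhibitor of growth signalling, was at 79.9, 73.2, 89.4 and 87.4 and 33, 28.6, 19.6 and 19.3, a fall in both genotypes. Arhgef37 and Ptpro also fell in both, with differences of -1.48 and -1.07. Ide, insulin-degrading enzyme, was at 47.7, 46.1, 23.1 and 28 CPM on day 0 and 42.5, 40.4, 47.6 and 36 on day 2 (0.89 ± 0.22). Both knockout libraries lay below both wild-type libraries on day 0, whereas on day 2 knockout replicate 1 lay above both and replicate 2 below, the same order as for Eif2ak2. Without knockout day 2 replicate 1 the differences were -1.19 for F13a1, 1.503 for Stab2, -0.89 for Sesn1, -1.72 for Arhgef37, -1.15 for Ptpro and 0.67 for Ide, none of them called. The interaction test recovered 93% of simulated differences of 2 on the log2 scale and 36% of those of 1. Smaller differences between the genotypes would thus mostly be missed at this number of libraries. The simulated differences were placed only in well-counted genes, without a change between days, so recovery in genes of few counts was not tested.

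Single libraries bore on this count. Without knockout day 2 replicate 2, so that replicate 1 stood alone for its group, 20 genes were called, among them the immediate-early genes Fosb (-3.56), Fos (-2.41) and Jun (-1.76) and the platelet genes Ppbp and Tubb1 (-2.65 and -3.06), all with a lower change in the knockout; these names were chosen after their values were seen. Igha was among the genes called whichever knockout day 2 library was left out. Its difference was -2.63 without replicate 1 and -4.23 without replicate 2. By list, the day 2 changes in each genotype can be set side by side, untested: chaperone medians were 1.82 for wild type and 1.92 for knockout spleens, mitosis 2.85 and 3.31, T cell receptor genes -2.21 and -2.41, stromal genes 2.19 and 2.49, and basophil, mast cell and eosinophil genes -1.98 and -2.68. Without knockout day 2 replicate 1 the knockout medians of these lists, in that order, were 1.70, 3.04, -1.91, 2.50 and -2.44.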

How the data were processed

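Spleen RNA of 16 libraries, 2 per group of genotype and day, was measured. Each deposited table listed 142604 transcripts with fragment counts as the authors counted them, and, per the file headers, FPM, the count scaled to library size (recorded as a score, since its sums pass the total of its scale), and FPKM. Over the tables, FPM was the count divided by a library total, which gave the depth of each library. The submitters' processing notes list TopHat, HISAT2, Trimmomatic, bcl2fastq 2.17.1.14 and the build mm10, with no roles. For the counter and its gene models, the program is not given in the sources used here.

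For each of 55291 symbols the transcript with the highest mean count was kept, protein-coding ones first (types from GENCODE vM21, 98.7% of transcript IDs matched). Counts were fitted with edgeR 4.0.16 in R 4.3.3 (TMM on total fragments, filterByExpr with a minimum count of 10, robust quasi-likelihood F test, Benjamini-Hochberg over 17993 genes, threshold 0.05). The fit had genotype and day as terms and 5 residual degrees of freedom. A fit with 1 mean per group gave the change in each genotype and their difference, and a fit of all 16 libraries gave days 1 and 5. CPM of the time course were scaled over 16 libraries and differ slightly from those scaled over 8. SEs are the log2 change divided by the root of F. DESeq2 1.42.0 was an alternative. Data were simulated for day 2 against day 0 over 17511 genes. Of 100 changes of 1 on the log2 scale 88% were recovered, and of 100 of 2 99%, with 11 false calls. For the genotype difference the shares were 36% and 93% over 17513 genes, with 7 false calls. In both simulations changes were placed only in well-counted genes, and nothing else differed between groups.

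The comparison, the gene lists and their members were chosen with earlier results of these data known. Genes were named by rule: Eif2ak2; the 12 largest called rises and the 12 largest called falls without overlap of the days and with FPKM of at least 1; fixed members of each list with up to 5 called members of largest change; and the 6 smallest p of the genotype difference, leaving out predicted genes, pseudogenes, antisense and variable segments. Replicate numbers were not used as pairs, because deviations of same-numbered libraries correlated at only 0.0362 to 0.229. Promoter sequences are those of RefSeq on GRCm38.p6, 250 bases before the start. Results of some genes are not reported here. A planned search of protein ends for the ER retention signal was not run.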

Additional observations from a re-analysis of the deposited data

Results flagged for a closer look

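Groups of 4 libraries of 1 day, 88 in all, were checked for 44 genes whose library values are printed. Igha, also printed by library, was not among the genes checked. In 5 groups a library was set apart from the other 3 by more than the 95% limit of Dixon for 4 values. Chance flags about 1 group in 20. On day 2, knockout replicate 1 was high in 2 genes of cell division: Mki67 was at 1242 CPM there and between 812.5 and 869 in the others, and Plk1 at 42.6 and between 32.4 and 34.0. The days remained apart in both genes. Cd209a had a level of 0.0397 CPM in wild type day 2 replicate 2 and no counts in the other 3 libraries of that day.

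On day 0, wild type replicate 1 had the highest level of Bhlha15, 2.07 CPM against 1.15 to 1.30. Knockout day 0 replicate 2 had the highest level of Cr2, 336 CPM against 268 to 278.

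Ide was lower in both wild-type libraries of day 2 than in both of day 0, and higher in both knockout libraries of day 2 than in both of day 0, a difference between the genotypes of 0.89 in log2 change. The edgeR test of that difference did not call it (adjusted p = 0.9999), and without knockout day 2 replicate 1 it was 0.67. Igha, left out of the check, was higher in both wild-type libraries of day 2 than in both of day 0. In the knockout, Igha was lower in both libraries of day 2 than in both of day 0, and lowest in replicate 1.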

How the results depend on the processing

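The count of 10627 genes called for day 2 against day 0 ranged from 9795 to 10585 when 1 library was left out. Those fits tested 18703 to 18852 genes, against 17993 in the main fit. Over the same 17993 genes the count was 10409 with 1 mean per group, 10607 with the size factors of DESeq2 and 10326 by DESeq2. Without TMM, an alternative added after seeing the data, it was 10492. Other gene sets gave 11398 of 18744 with all 16 libraries in the fit and 11592 of 30670 with no filter. With transcripts summed it was 10669 of 18907, and with any transcript type 10653 of 18038. With the replicate number as a block it was 11084, and the block gave 8115 calls in the wild type, 8856 in the knockout and 0 for the genotype difference. Left-out libraries gave 4745 to 7968 calls in the wild type (7285), 6010 to 8390 in the knockout (8150) and 0 to 20 for the genotype difference (0), for which DESeq2 gave 3. Where a group was left with 1 library, that library was assumed to vary like the others. Of 58 lists, counted under 17 alternatives each, 6 moved by more than 1.5 times, in 21 of 986 values. With 1 library left out, ribosomal proteins higher (19) ranged from 10 to 23, mature neutrophil genes lower (4) from 2 to 8, erythroid genes lower (11) from 3 to 16, megakaryocyte genes higher (6) from 1 to 11, stem and progenitor genes lower (11) from 7 to 11 and endothelial genes higher (8) from 5 to 8. Without TMM, ribosomal proteins higher were 11. The cause was not tested. Of 357 named genes called, 27 lost the call in 1 or more alternatives, 7 of them without knockout day 2 replicate 1, and no named gene changed direction while called. Day 0 and day 2 libraries held 35546031 fragments or more. Changes in genes of a few counts per library, such as Mir5134 or Cd209d, are limited by depth.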

Other observations

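The heat shock and oxidative stress lists were not described above, except Prdx4, Ero1l and Ero1lb of the latter, named with the folding enzymes. Of 14 cytosolic and mitochondrial heat shock genes 6 rose and 2 fell (median 0.14). The mitochondrial chaperonins Hspd1 and Hspe1 rose by 0.87 and 0.98 and the cytosolic HSP90 genes Hsp90aa1 and Hsp90ab1 by 0.45 and 0.55, while Hspa1a and Hspa1b, near copies that encode inducible HSP70, were not called. Of 16 oxidative stress genes 6 rose, among them the thioredoxin reductase Txnrd1 by 1.14 and the peroxiredoxin Prdx1 by 1.25, and 2 fell, Nfe2l2, the NRF2 factor, by 0.37 and Hmox1 by 0.30. The call of Hmox1 was lost in 5 of 17 alternatives, among them without knockout day 2 replicate 1. Nqo1 and Gclc, targets of NRF2, were not called (adjusted p 0.300 and 0.257). Of adipose and muscle genes 3 of 10 were tested, and Des, desmin, rose by 3.18.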
